A study of Mus musculus with 17 samples.

Results

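The progesterone receptor gene Pgr and 8 genes reported to depend on it around ovulation were followed here through 4 h of exposure of mouse ovarian follicles to an inhibitor of the EGF receptor. The 9 genes are Pgr, Edn2, Pparg, Zbtb16, Prkg2, Cxcr4, Ctsl, Hif1a and Snap25. They were chosen by symbol, as genes tied to the receptor by earlier studies, with results of these libraries already known, and all 9 were found among the 25198 rows of the count table. Of the 8 that had enough counts to be tested, 5 were lower in Tyrphostin follicles (Pgr, Pparg, Hif1a, Snap25 and Prkg2), beside 6.25% of all genes tested, and 0 were higher. Ctsl, Cxcr4 and Zbtb16 did not pass the test, and Edn2 was too rare to be tested.

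Progesterone receptor is a nuclear receptor and transcription factor. In the ovary the surge of luteinizing hormone switches it on in the mural granulosa cells of the largest follicles, for a short time before the follicle ruptures. Luteinizing hormone acts on granulosa cells in part through EGF-like ligands, which are shed and activate the EGF receptor on neighbouring cells. Mice without Pgr form large follicles that luteinize but fail to release their oocytes, and the other 8 genes were named in studies of such follicles as lower when the receptor is missing or blocked.

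Bulk RNA-seq was made from antral follicles of CD1 mice 16 days old that had grown for 8 days in eIVFG, an encapsulated culture in which single follicles develop outside the ovary. The 6 Tyrphostin libraries come from follicles given hCG, the hormone that stands in for luteinizing hormone, with 10 µM Tyrphostin AG1478 in DMSO for 4 h. AG1478 is an inhibitor of the EGF receptor kinase. The 11 libraries called Control carry the same treatment text in the labels, so whether these follicles received hCG, DMSO or both is not stated, and no untreated follicles are identified. Each library holds 3 follicles, so it mixes granulosa cells with whatever theca cells and oocytes stay attached in culture.

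The labels name 2 batches. Batch 1 holds Control 1 to 6 and Tyrphostin 1 to 3, and batch 2 holds Control 7 to 11 and Tyrphostin 4 to 6. What the batches are is not stated. The labels do not say that libraries came from separate animals or cultures, so p-values measure only the spread between libraries, which may in part be technical. Fewer cells of a type and less RNA per cell cannot be told apart in such data. Library totals ran from 1820545 to 8291024 counts, and a floor of 3 counts corresponded to between 0.336 and 1.64 CPM (a library's counts scaled to a common total with TMM factors), for counting error only. Each of the 31 pairs of libraries that share group and batch differed beyond counting error, with 12.7 to 93.1 as the chi-square per degree of freedom. Each library was counted as 1 sample, but this does not show that libraries are independent. Column names place the Control libraries in 5 sets, and what a set is was not stated. In batch 1, Control pairs of 1 set had 12.7 to 28.7 and pairs across sets 21.1 to 45.3. In batch 2, the pairs of 1 set had 62.1 and 17.7, and pairs across sets 20.8 to 93.1. SDs and p-values over Control libraries treat libraries of 1 set as separate. Control 7 stood apart in its share of mitochondrial counts, at 0.175%, while the other batch 2 Control libraries had 1.74% to 1.94% and the batch 1 Control libraries 1.86% to 2.83%. The share was 1.55% to 2.5% in batch 1 Tyrphostin libraries and 0.781% to 1.32% in those of batch 2, which lies between Control 7 and the other Control libraries of the batch. The part of this share in the values of the 9 genes was not tested.

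The tissue was checked against markers of its cell types. Summed CPM of 7 granulosa markers was 38988 to 52788 in Control and 35085 to 51545 in Tyrphostin libraries. Nearly all of that sum is Inha (log2 fold change -0.05 ± 0.15 (SE), adjusted p 0.894). Foxl2 and Amh were too rare to be tested. Foxl2 reached 1.2 CPM in Control and 4.66 CPM in Tyrphostin libraries, and Amh 0.213 and 1.08 CPM. Of the 5 granulosa markers tested, 4 were called higher in Tyrphostin follicles, beside 4.35% of all genes tested. These were the estrogen synthesis genes Cyp19a1 and Hsd17b1, the nuclear receptor Nr5a2 and Fshr, the receptor of follicle-stimulating hormone. The log2 fold changes were 2.35 ± 0.22 for Cyp19a1, 2.18 ± 0.16 for Nr5a2, 2.64 ± 0.35 for Hsd17b1 and 0.83 ± 0.25 for Fshr, with adjusted p from 8.38e-09 to 0.0344. The part of granulosa cell state in the values of the 9 genes was not tested. The 8 theca and stroma markers summed to 266 to 2161 CPM in Control and 273 to 3089 CPM in Tyrphostin libraries, with the highest sum in Tyrphostin 5. The 8 oocyte markers summed to 18.3 to 84.8 CPM in Control and 20.5 to 209 CPM in Tyrphostin libraries, with the highest sums in Tyrphostin 6 (209) and Tyrphostin 5 (96). Of these markers 7 were tested and 0 were called in edgeR, beside 10.6% of all genes tested in either direction. Zp2, a protein of the egg coat, had a log2 fold change of 1.37 ± 0.49 (adjusted p 0.0908). The part of oocyte RNA in the values of the 9 genes was not tested.

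The 9 genes spanned a wide range of levels in Control follicles. On the scale of CPM per kb of exon, Ctsl had the highest level (660 ± 351, SD, n = 11), followed by Pgr (234 ± 127), Hif1a (193 ± 65) and Pparg (118 ± 73.8). Then came Snap25 (3.2 ± 1.41 CPM per kb), Cxcr4 (2.72 ± 2.43), Prkg2 (0.908 ± 0.597), Zbtb16 (0.404 ± 0.317) and Edn2 (0.224 ± 0.29). Neighbours in this order overlapped within 1 SD of their means, with 1 exception, the step from Pparg down to Snap25. Pgr stood above 99.1% of the 21447 genes ranked this way, and Edn2 above 45.4%.

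Promoter windows are shown for Pgr and for the members of lowest adjusted p that have one. Counts per gene do not show which start site was in use. RefSeq windows of 300 bases (250 before and 50 after a start site, build GRCm38.p6) matched 6 of the 9 genes. Zbtb16, Prkg2 and Snap25 had no entry. For Pparg, which has 3 windows, the one with the most matches is printed. Capitals mark matches to any of 8 short motifs.
Pgr, chr9:8899583-8899882, plus strand: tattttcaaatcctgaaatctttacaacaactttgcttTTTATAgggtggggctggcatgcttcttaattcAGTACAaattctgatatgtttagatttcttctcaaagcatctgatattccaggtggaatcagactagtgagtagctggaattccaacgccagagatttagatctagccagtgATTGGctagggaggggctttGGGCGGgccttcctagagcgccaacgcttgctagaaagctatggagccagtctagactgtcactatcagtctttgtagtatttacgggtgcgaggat
Pparg, window 2, chr6:115362099-115362398, plus strand: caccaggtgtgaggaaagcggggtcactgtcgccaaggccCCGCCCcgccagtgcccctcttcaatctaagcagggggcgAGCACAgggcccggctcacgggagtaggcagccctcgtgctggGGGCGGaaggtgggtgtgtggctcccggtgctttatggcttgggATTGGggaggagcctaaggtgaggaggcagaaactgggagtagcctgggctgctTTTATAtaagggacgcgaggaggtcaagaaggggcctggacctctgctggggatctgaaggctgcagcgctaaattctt
Hif1a, chr12:73907617-73907916, plus strand: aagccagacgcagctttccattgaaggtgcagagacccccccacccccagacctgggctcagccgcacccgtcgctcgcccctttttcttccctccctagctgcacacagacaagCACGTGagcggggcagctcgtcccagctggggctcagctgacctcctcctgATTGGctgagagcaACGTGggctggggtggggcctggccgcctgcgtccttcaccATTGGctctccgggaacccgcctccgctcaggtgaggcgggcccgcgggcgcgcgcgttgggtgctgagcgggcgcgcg

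The motifs were searched on both strands. The core of a progesterone response element was taken as ACANNNTGT and its half-site as TGTNCT. The GC box that Sp1 proteins bind was GGGCGG, and TGACG stands for the half-site of cyclic AMP response elements. AP-1 factors bind TGANTCA, and hypoxia-inducible factors bind ACGTG. The last pair, TATAAA for the TATA box and CCAAT for the site of NF-Y, are general promoter elements. The Pgr window holds a half-site match (AGTACA on the printed strand) that starts 179 bases before the start site, and a GC box that starts 47 bases before it. The printed Pparg window holds 1 half-site match, 2 GC boxes, 1 TATAAA match and 1 CCAAT match. In the Hif1a window the letters CACGTG match the hypoxia core on both strands with an overlap, and ACGTG occurs again 70 bases before the start site.

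None of the 8 windows of the 6 genes had a match to ACANNNTGT, TGANTCA or TGACG. Among all 32851 RefSeq windows of this length, 6.85% hold ACANNNTGT, 7.81% hold TGANTCA and 20.8% hold TGACG. The half-site TGTNCT, found in windows of Pgr, Pparg, Cxcr4 and Ctsl, occurs in 50.5% of all windows. GGGCGG, found for Pgr, Pparg and Cxcr4, occurs in 35.7%, and ACGTG, found for Hif1a and Ctsl, in 19.6%. TATAAA occurs in 13.6% of all windows and CCAAT in 37.4%. The Edn2 window had no match to any of the 8 motifs. These are matches of letters in 1 window for each start site and say nothing of binding.

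**Figure D1:**
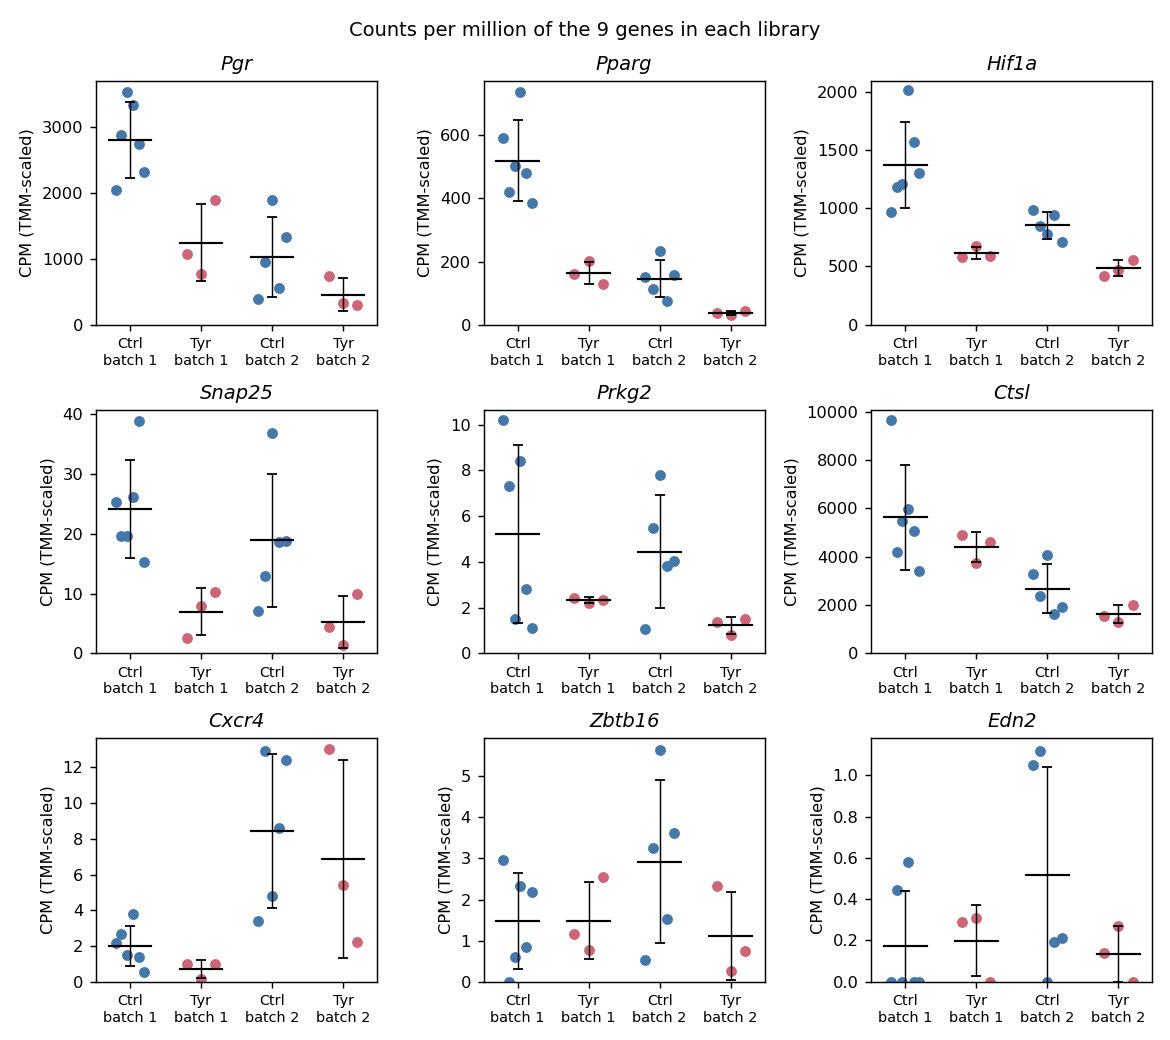
CPM (TMM-scaled, linear axis from 0) of the 9 genes in each library. Points are libraries, blue for Control (Ctrl) and red for Tyrphostin (Tyr), split by batch, with the mean and SD as a line and bar. Hif1a is the gene in which all 6 Tyrphostin libraries lie below all 11 Control libraries, and Pparg separates the groups within each batch.

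Pgr, the receptor itself, was lower in Tyrphostin follicles at 44.4% of the Control level. The gene lies on chromosome 9, 8899833 to 8968611 on the plus strand (GRCm38, GENCODE M21). The Control libraries of batch 1 ran from 2038 through a median of 2811 to 3529 CPM. The Tyrphostin libraries of batch 1 measured 1079, 763 and 1889 CPM. Each of these 3 lies below all 6 Control libraries of its batch, which holds for 6.3% of the genes tested. Tyrphostin 3 comes close to the lowest of these Control libraries. In batch 2 the Control libraries measured 386, 954, 1886, 556 and 1338 CPM, and the Tyrphostin libraries 747, 326 and 295 CPM. Here the groups overlap, since Tyrphostin 4 lies above Control 7 and Control 10.

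With batch as a term, the log2 fold change of Pgr was -1.17 ± 0.3 (SE; 95% interval -1.82 to -0.52), with an adjusted p of 0.0141 in edgeR's quasi-likelihood test. The effect was nearly the same within the batches, -1.16 ± 0.3 (adjusted p 0.0238) in batch 1 and -1.17 ± 0.52 (adjusted p 0.455) in batch 2. The call of Pgr was lost with no filter on low counts (adjusted p 0.0635) and with no batch term (adjusted p 0.133). It held when any 1 of the 17 libraries was left out, with adjusted p up to 0.0475 without Tyrphostin 6. Without Control 7, the library of low mitochondrial share, the log2 fold change was -1.27 (adjusted p 0.0027) over both batches and -1.37 (adjusted p 0.175) within batch 2. Within batch 1 it was lost without Tyrphostin 1 (adjusted p 0.0964) or Tyrphostin 2 (adjusted p 0.125).

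Of the 8 members tested, 5 passed as lower, beside 6.25% of the 9603 genes tested, and 0 as higher, beside 4.35%. The median log2 fold change of the 8 was -1.08, beside 0 over all genes tested. Edn2 is missing from both numbers, because it did not pass the filter on low counts.

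Edn2 encodes endothelin 2, a secreted peptide that makes the muscle-like cells of the follicle wall contract near rupture. It lies on chromosome 4, 120161206 to 120167360, plus strand. Reads of Edn2 were almost absent. The 11 Control libraries held 20 counts in all and the 6 Tyrphostin libraries 6, with 5 Control and 2 Tyrphostin libraries at 0. Control 8 held 10 counts and Control 7 held 4, and every other library 2 or fewer. With no filter, the log2 fold change was -0.8 ± 0.96 (SE), adjusted p 0.722. A difference in Edn2 was not detectable at this depth.

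The other genes of the endothelin pathway gave little more. Of 6 listed, 2 had enough counts to be tested and 0 passed, beside 10.6% of all genes tested in either direction. Ednra, the type A receptor, had a log2 fold change of 0.08 ± 0.24 (adjusted p 0.899), a value whose sign turned with limma-voom (-0.01). Ece1, which cuts the precursor to the active peptide, had 0.15 ± 0.13 (adjusted p 0.555). Edn1, Edn3, Ece2 and Ednrb did not pass the filter.

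The transcription factor Pparg had the lowest p of the 9 genes. It encodes a nuclear receptor for fatty acid ligands that acts as a partner of RXR, and it lies on chromosome 6, 115360951 to 115490399, plus strand. Control libraries of batch 1 ran from 384 through a median of 491 to 736 CPM, against 161, 201 and 130.1 CPM in the Tyrphostin libraries. In batch 2 the Control libraries measured 149.9, 114, 234, 76.5 and 156 CPM, against 36.5, 30.2 and 43.5 CPM in the Tyrphostin libraries. Within each batch every Tyrphostin library lies below every Control library, which holds for 2.21% of the genes tested. Across batches the groups overlap, since Pparg averaged 146 ± 58.4 CPM (SD, n = 5) in batch 2 Control and 164 ± 35.7 CPM (n = 3) in batch 1 Tyrphostin libraries.

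The log2 fold change of Pparg was -1.81 ± 0.22 (adjusted p 8.36e-06), a fall to 28.5% of the Control level. It was -1.66 ± 0.27 (adjusted p 0.000942) within batch 1. Within batch 2 it was -1.98 ± 0.35 (adjusted p 0.0305). The pooled call was lost when the batch term was dropped (adjusted p 0.0524) and held without any 1 library. The call within batch 2 was lost without Control 8 (adjusted p 0.0685), Control 11 (0.0613), Tyrphostin 4 (0.139), Tyrphostin 5 (0.181) or Tyrphostin 6 (0.137).

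Among relatives and partners of Pparg, 3 of 9 listed genes were tested and 1 passed, as lower. Of all genes tested, 10.6% passed in either direction. Cd36, a fatty acid uptake receptor and a known PPAR target, fell from 56.7 ± 34 CPM (SD, n = 11) to 27.4 ± 9.47 CPM (n = 6), with a log2 fold change of -0.94 ± 0.28 and an adjusted p of 0.0303. Its call was lost without Control 9 (0.0522), Tyrphostin 1 (0.0738), Tyrphostin 2 (0.0795), Tyrphostin 3 (0.0678), Tyrphostin 5 (0.0572) or Tyrphostin 6 (0.0789). It was also lost with total-count scaling (0.0537), no filter (0.0817), no batch term (0.114) and the total count as a covariate (0.0621). Rxra, the partner receptor, had a log2 fold change of -0.38 ± 0.25 (adjusted p 0.375).

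Hif1a encodes the oxygen-regulated subunit of the hypoxia-inducible factor, whose protein is mostly controlled by degradation. The gene lies on chromosome 12, 73901375 to 73947530, plus strand, and this annotated start lies upstream of the start site in the RefSeq window above. Control libraries of batch 1 ran from 963 through a median of 1254 to 2010.3 CPM, and the Tyrphostin libraries measured 583, 679 and 593 CPM. In batch 2 the Control libraries measured 984, 843, 777, 944 and 711 CPM, and the Tyrphostin libraries 421, 473 and 559.7 CPM. All 6 Tyrphostin libraries lie below all 11 Control libraries, which holds for 1% of the genes tested, and Hif1a is the 1 member of the 9 for which it does.

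The log2 fold change of Hif1a was -0.98 ± 0.17 (95% interval -1.36 to -0.61, adjusted p 0.000563), a fall to 50.5% of the Control level. Its call held under all 14 alternatives and without any 1 of the 17 libraries. Within batch 1 it was -1.14 ± 0.26 (adjusted p 0.0116), lost without Tyrphostin 1 (0.0514). Within batch 2 it was -0.81 ± 0.24 (adjusted p 0.186 in edgeR and 0.0087 in DESeq2). The annotation places 478 exonic bases of Hif1a under other genes, Gm15283 on the opposite strand and Gm49321 on the same one, so a few of its reads could belong to either.

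Other genes of the hypoxia pathway were read beside Hif1a. Of 9 listed partners and oxygen sensors, 8 were tested and 0 passed, beside 10.6% of all genes tested in either direction, with log2 fold changes from -0.53 to 0.01. Epas1, which encodes the sister subunit HIF2 alpha and was singled out after its values were seen, had 17.8 ± 5.92 CPM in Control and 17.1 ± 6.8 CPM in Tyrphostin libraries (log2 fold change -0.05 ± 0.23, adjusted p 0.937, with either sign among the alternatives). Of 10 listed HIF target genes, 7 were tested and 1 passed, as lower, beside the same 10.6% of all genes tested. That gene, Slc2a1, encodes the glucose transporter GLUT1 and fell from 1966 ± 862 to 736 ± 519.6 CPM (log2 fold change -1.49 ± 0.39, adjusted p 0.0179). Its call was lost without Tyrphostin 2 (adjusted p 0.0562), with no filter on low counts (0.0802) and with the Control libraries summed by set (0.134). The glycolytic targets Ldha (-0.31 ± 0.33, adjusted p 0.631) and Pgk1 (-0.54 ± 0.37, adjusted p 0.403) did not pass.

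Zbtb16 encodes PLZF, a zinc finger repressor, and is induced by progestins and glucocorticoids in many tissues. It lies on chromosome 9, 48654297 to 48836222, minus strand. It was rare, with 97 counts over the Control and 48 over the Tyrphostin libraries. Control libraries ran from 0 through a median of 2.19 to 5.65 CPM, and Tyrphostin libraries from 0.27 through 0.962 to 2.54 CPM. The groups overlap in both batches. Zbtb16 had a log2 fold change of -0.58 ± 0.55 (95% interval -1.77 to 0.6, adjusted p 0.581), an interval that includes a fall as deep as that of Pgr.

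Other genes that respond to progestins or glucocorticoids were read beside Zbtb16. Of 5 listed, all 5 were tested and 1 passed, as lower, beside 10.6% of all genes tested in either direction. Per1, a circadian repressor, fell from 79.1 ± 45.7 CPM (SD, n = 11) to 30.5 ± 18 CPM (n = 6), with a log2 fold change of -1.29 ± 0.23 and an adjusted p of 0.000542. The other steroid receptors gave 0 calls among 5 tested, beside the same 10.6%. Their log2 fold changes ran from -0.6 to 0.71. The highest was Esr2, the granulosa estrogen receptor, at 0.71 ± 0.29 (adjusted p 0.128).

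Prkg2 encodes the cyclic GMP-dependent protein kinase 2, on chromosome 5, 98929773 to 99037351, minus strand. In batch 1 the Control libraries ran from 1.09 through a median of 5.08 to 10.2 CPM, and the Tyrphostin libraries measured 2.44, 2.18 and 2.34 CPM. In batch 2 the Control libraries measured 1.05, 5.49, 7.82, 3.83 and 4.06 CPM, against 1.37, 0.809 and 1.49 CPM. The Tyrphostin libraries are uniformly low, while the Control libraries are scattered, with Control 3, 6 and 7 as low as they are. Those 3 Control libraries rest on 5, 2 and 4 counts.

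Tyrphostin follicles had a log2 fold change of Prkg2 of -1.46 ± 0.43 (adjusted p 0.0286), a fall to 36.4% of the Control level. Neither batch passed alone (adjusted p 0.224 in batch 1 and 0.242 in batch 2). The call rests on few counts and lies close to the threshold. It was lost without Control 1 (adjusted p 0.0563), Control 4 (0.0522), Control 8 (0.0509), Tyrphostin 1 (0.0517), Tyrphostin 2 (0.0574), Tyrphostin 4 (0.0582), Tyrphostin 5 (0.0616) or Tyrphostin 6 (0.0606). In limma-voom the adjusted p was 0.107, with no batch term 0.0543, and with the replicate number as a block 0.24. Without Control 7 the call within batch 2 passed (adjusted p 0.0428).

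In the cyclic GMP pathway around Prkg2, 5 of 6 listed genes were tested and 1 passed, as higher. Of all genes tested, 10.6% passed in either direction. Nppc, the ligand CNP that holds the oocyte in meiotic arrest, rose from 4.95 ± 2.5 CPM (SD, n = 11) to 9.62 ± 4.91 CPM (n = 6), with a log2 fold change of 0.96 ± 0.24 and an adjusted p of 0.0119. The call of Nppc was lost with no batch term (0.0791) and with the total count as a covariate (0.079). Its receptor Npr2 had 0.45 ± 0.17 (adjusted p 0.0915) and passed without Control 6 (0.0299) or Control 7 (0.0317), with total-count scaling (0.0309) and in voom with sample weights (0.0221). Gucy1a1, a subunit of soluble guanylyl cyclase, had 0.74 ± 0.24 (adjusted p 0.0561) and passed without Control 5 (0.0488), Control 7 (0.0175) or Tyrphostin 3 (0.00681), in DESeq2 (0.0449), with no filter (0.0127) and with total-count (0.0163) or upper-quartile scaling (0.0469).

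Cxcr4 encodes the receptor of the chemokine CXCL12, on chromosome 1, 128588199 to 128592293, minus strand. In batch 1 the Control libraries ran from 0.547 through a median of 1.83 to 3.77 CPM, and the Tyrphostin libraries measured 1, 0.155 and 0.976 CPM. In batch 2 the Control libraries measured 3.41, 12.9, 4.78, 8.63 and 12.4 CPM, and the Tyrphostin libraries 13, 5.39 and 2.24 CPM. Most batch 2 libraries lie above all batch 1 libraries in both groups, and the highest library of all, Tyrphostin 4, is a treated one. Its log2 fold change was -0.72 ± 0.42 (95% interval -1.62 to 0.18, adjusted p 0.317). Without Tyrphostin 4 it was -1.35 with an adjusted p of 0.0499.

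Leukocytes also express Cxcr4, so their markers were read beside it. The 7 immune markers summed to 17.4 to 61.7 CPM in batch 1 Control libraries and to 54.9 to 463 CPM in batch 2 Control libraries. They summed to 19.9 to 53.2 CPM in batch 1 and 43.6 to 859 CPM in batch 2 Tyrphostin libraries, with Tyrphostin 5 the highest. Library by library, the sums were 301, 463, 121, 58.8 and 54.9 CPM in Control 7 to 11. In Tyrphostin 4 to 6 they were 56.8, 859 and 43.6 CPM. Lyz2, a lysozyme of macrophages, had 5.78 to 46.1 CPM in batch 1 and 39.1 to 436 CPM in batch 2 Control libraries, and Csf1r, a macrophage receptor, 9.56 to 20.3 and 11.5 to 19.7 CPM. Most of the highest sum, that of Tyrphostin 5, was Lyz2, at 819 CPM. Ptprc, Cd52 and Tyrobp never exceeded 14 counts in a library. The part of immune cells in the Cxcr4 values was not tested. The 6 endothelial markers summed to 8.54 to 89.8 CPM in Control and 8.77 to 33.4 CPM in Tyrphostin libraries. The ligand Cxcl12 (log2 fold change 0.06 ± 0.3, adjusted p 0.932) and the decoy receptor Ackr3 (-0.16 ± 0.35, adjusted p 0.842) gave 0 calls. Of all genes tested, 10.6% were called in either direction. The signs of Cxcl12 and Ackr3 turned when single libraries were left out.

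Ctsl encodes cathepsin L, a cysteine protease of lysosomes that granulosa cells also secrete. It lies on chromosome 13, 64359337 to 64370890, minus strand, and its exons share 2137 bases with Gm47123, an antisense gene, and Gm49230, a pseudogene. How reads in these shared bases were counted cannot be told from the sources used here, which do not give the strand setting. In batch 1 the Control libraries ran from 3398 through a median of 5274 to 9682 CPM, against 4901, 3726 and 4626 CPM. The Control libraries of batch 2 measured 3303, 2378, 4093, 1643 and 1918 CPM, against 1531, 1314 and 2019 CPM. The groups overlap in both batches.

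Ctsl had a log2 fold change of -0.52 ± 0.23, with a 95% interval of -1.02 to -0.03 that just leaves out 0 and an adjusted p of 0.161. It was -0.35 ± 0.3 within batch 1 (adjusted p 0.57) and -0.71 ± 0.34 within batch 2 (adjusted p 0.483). Of 10 other cathepsins and cystatins, all 10 were tested and 1 passed, as lower. This is near the 10.6% of all genes tested that passed in either direction. Ctsc, the activator of granule proteases, fell from 606 ± 159.9 to 355 ± 189 CPM (log2 fold change -0.79 ± 0.21, adjusted p 0.0182). Its call was lost without Tyrphostin 1 (0.0559), Tyrphostin 4 (0.0537) or Tyrphostin 5 (0.0566), with no batch term (0.0986), with the total count as a covariate (0.0543) and with the Control libraries summed by set (0.0813). Ctsb, the most abundant of the 10, had 0.27 ± 0.18 (adjusted p 0.4).

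Snap25 encodes a SNARE protein that drives fusion of secretory vesicles, best known from synapses. The gene lies on chromosome 2, 136713453 to 136782428, plus strand. Control libraries of batch 1 ran from 15.3 through a median of 22.5 to 38.9 CPM, and the Tyrphostin libraries measured 2.58, 7.92 and 10.3 CPM. The Control libraries of batch 2 measured 7.09, 13, 36.9, 18.6 and 18.8 CPM, and the Tyrphostin libraries 4.39, 1.35 and 9.89 CPM. In batch 1 the groups do not overlap, which holds for Pgr, Pparg and Hif1a too and for 6.3% of all genes tested. In batch 2, where Pparg and Hif1a separate the groups as 5.08% of genes do, Snap25 does not, since Tyrphostin 6 lies above Control 7.

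Over both batches the log2 fold change of Snap25 was -1.81 ± 0.37 (95% interval -2.61 to -1, adjusted p 0.00298), a fall to 28.6% of the Control level. It was -1.81 ± 0.38 (adjusted p 0.00745) within batch 1 and -1.79 ± 0.61 (adjusted p 0.268) within batch 2. The call held without any 1 library. It was lost with the replicate number as a block (adjusted p 0.17). Without Control 7 the batch 2 libraries no longer overlap, and the log2 fold change was -1.9 (adjusted p 0.00112) over both batches and -1.99 (adjusted p 0.119) within batch 2. Of 9 listed SNARE partners, 8 were tested and 0 passed, beside 10.6% of all genes tested in either direction. Their log2 fold changes ran from -0.47 to 0.31. The most abundant of them was Vamp3, a vesicle SNARE, at -0.19 ± 0.16 (adjusted p 0.509).

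**Figure D2:**
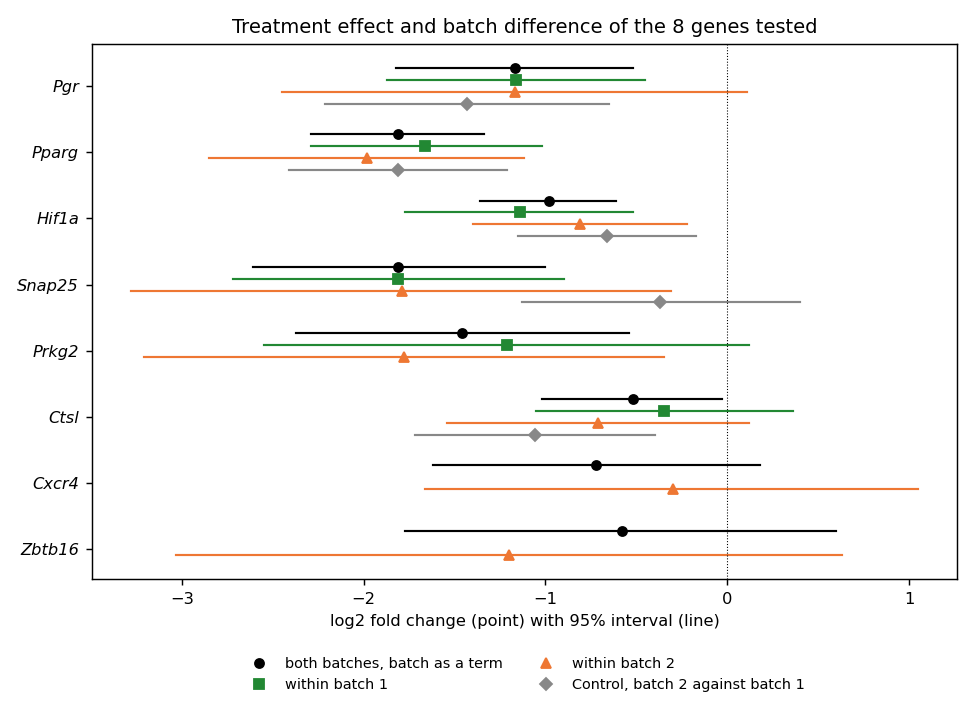
The log2 fold change (point) and 95% interval (line) of each tested member, for Tyrphostin against Control over both batches, within batch 1 and within batch 2, and for batch 2 against batch 1 among Control libraries. All treatment points lie below 0. So do the grey points, at -1.43 for Pgr, -1.81 for Pparg and -1.06 for Ctsl. Zbtb16, Prkg2 and Cxcr4 have no grey point, because they did not pass the filter among Control libraries.

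Within batch 1, 4 of the 6 members tested passed as lower (Pgr, Pparg, Hif1a and Snap25), beside 3.79% of 9423 genes. Within batch 2, 1 of the 8 members tested passed as lower (Pparg), beside 0.427% of 9830 genes. The difference between the batches was tested itself as an interaction, and 0 of the 9603 genes passed in edgeR (342 had an unadjusted p under 0.05), members included. The interaction was 0.01 ± 0.59 (SE) for Pgr and -0.33 ± 0.41 for Pparg. It was farthest above 0 for Cxcr4, at 1.24 ± 0.86 (unadjusted p 0.16). The intervals are wide, for Pgr -1.27 to 1.28, and so include differences between batches of more than 2-fold.

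Pgr, Pparg and Ctsl also differed between the Control follicles of the batches. In Control libraries alone, batch 2 against batch 1, 14% of 6680 genes passed in either direction and 6.77% as lower. Of the 5 members tested there, 3 passed as lower. Edn2, Zbtb16, Prkg2 and Cxcr4 did not pass the filter of this fit. Mean Control CPM of Cxcr4 was 2.01 ± 1.12 (SD, n = 6) in batch 1 and 8.42 ± 4.3 (n = 5) in batch 2. That of Zbtb16 was also higher in batch 2 (1.49 ± 1.16 and 2.92 ± 1.98), as was that of Edn2 (0.171 ± 0.268 and 0.515 ± 0.528). Prkg2 had 5.23 ± 3.91 and 4.45 ± 2.48. Pgr was 37.1% of the batch 1 level (log2 fold change -1.43 ± 0.34, adjusted p 0.0121). Pparg was 28.5% (-1.81 ± 0.27, adjusted p 0.000527). For both, every batch 2 Control library lies below every batch 1 Control library, which holds for 4.78% of genes.

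Ctsl was 47.9% of the batch 1 level (log2 fold change -1.06 ± 0.29, adjusted p 0.0236), and this call was lost without Control 8 (0.055), Control 10 (0.0617) or Control 11 (0.0563). Hif1a had -0.66 ± 0.22 (adjusted p 0.052), which passed without Control 1 (0.032) or Control 7 (0.042). Snap25 had -0.37 ± 0.34 (adjusted p 0.51). For Pgr, the Control difference between batches (-1.43) and the treatment effect (-1.17) lie within each other's 95% intervals. What sets the batches apart is not given in the labels.

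Beyond the 9, other genes reported to depend on Pgr at ovulation were read from a list of 8. The list was chosen with results of these libraries already known, and its genes Epas1 and Arnt are also among the HIF partners above. All 8 were tested, and 4 passed as lower, beside 6.25% of all genes tested, and 0 as higher, beside 4.35%. The median log2 fold change was -0.74, beside 0 over all genes tested. Adcyap1, the neuropeptide PACAP, fell from 155 ± 139 CPM (SD, n = 11) to 12.6 ± 5.29 CPM (n = 6), with a log2 fold change of -3.57 ± 0.64 and an adjusted p of 0.00173. Its lowest Control library, at 29.6 CPM, lies above its highest Tyrphostin library, at 19.4 CPM, which holds for 1% of genes tested. Its receptor Adcyap1r1 fell by 2.48 ± 0.49 on the log2 scale (adjusted p 0.00155), and the cytokine Il6 by 2.79 ± 0.51 (adjusted p 0.00151). PACAP and its receptor were thus both called lower. Adcyap1r1 was rare, at 1.2 to 8.45 CPM in Control and 0 to 1.62 CPM in Tyrphostin libraries, so its groups overlap. Within batch 1 both Adcyap1 and Adcyap1r1 passed in edgeR (adjusted p 0.00797 and 0.0224), and within batch 2 neither did (0.148 and 0.139).

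Areg, which encodes the EGF-like ligand amphiregulin, had a log2 fold change of -1.28 ± 0.4 at an adjusted p of 0.0493. This call was lost in 13 of the 17 fits that leave out 1 library, with adjusted p up to 0.126 without Tyrphostin 2. It held without Control 5, Control 6, Control 10 or Tyrphostin 4. Areg also missed the threshold with total-count scaling (0.0661), no filter (0.179), upper-quartile scaling (0.0527), 10 counts in 6 libraries as the filter (0.0506), no batch term (0.262) and Control libraries summed by set (0.119). The related ligand Ereg had -0.21 ± 0.25 (adjusted p 0.672), with 11665 ± 5618 CPM in Control and 9574 ± 2536 CPM in Tyrphostin libraries. Adamts1, the protease that cleaves versican and the best known target of Pgr in granulosa cells, had 0.02 ± 0.22 (95% interval in log2 units -0.45 to 0.49, adjusted p 0.968). Its levels were 851 ± 337 CPM in Control and 823 ± 350.2 CPM in Tyrphostin libraries, and its sign turned among the alternatives.

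Proteins that bind progesterone at the membrane, or that hold and assist the nuclear receptor, were read as further lists. Of 5 membrane progesterone receptors, 3 were tested and 1 passed, as higher, beside 10.6% of all genes tested in either direction. Paqr8 rose from 3.04 ± 0.912 CPM (SD, n = 11) to 7.73 ± 1.34 CPM (n = 6), and its log2 fold change was 1.35 ± 0.23 (adjusted p 0.000446). Its lowest Tyrphostin library, at 6.31 CPM, lies above its highest Control library, at 4.34 CPM, a separation that 0.51% of genes tested show in this direction. Paqr7 (0.55 ± 0.19, adjusted p 0.0697) and Pgrmc1 (0.33 ± 0.17, adjusted p 0.238) did not pass, though Paqr7 did without Control 1 (adjusted p 0.0433), with no filter (0.049) and with total-count (0.0173) or upper-quartile scaling (0.0493), and Pgrmc1 with total-count scaling (0.0493).

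Of 11 chaperones and coregulators of steroid receptors, all 11 were tested and 1 passed, as higher. Nrip1, a corepressor of nuclear receptors that is needed for ovulation, rose from 21.6 ± 3.75 CPM (SD, n = 11) to 36.6 ± 8.29 CPM (n = 6), with a log2 fold change of 0.74 ± 0.15 and an adjusted p of 0.00232. The chaperone Hsp90ab1 (-0.32 ± 0.17, adjusted p 0.28) and the immunophilin Fkbp4 (-0.68 ± 0.27, adjusted p 0.116) did not pass, though Fkbp4 did without Tyrphostin 6 (adjusted p 0.0477) and in voom with sample weights (0.0333). The background for these lists too is 10.6% of all genes tested. The 11 list genes called over both batches had the same direction within each batch, where 7 passed alone in batch 1 and 0 in batch 2. In batch 2 the lowest adjusted p among them was 0.0646, for Per1.

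**Figure D3:**
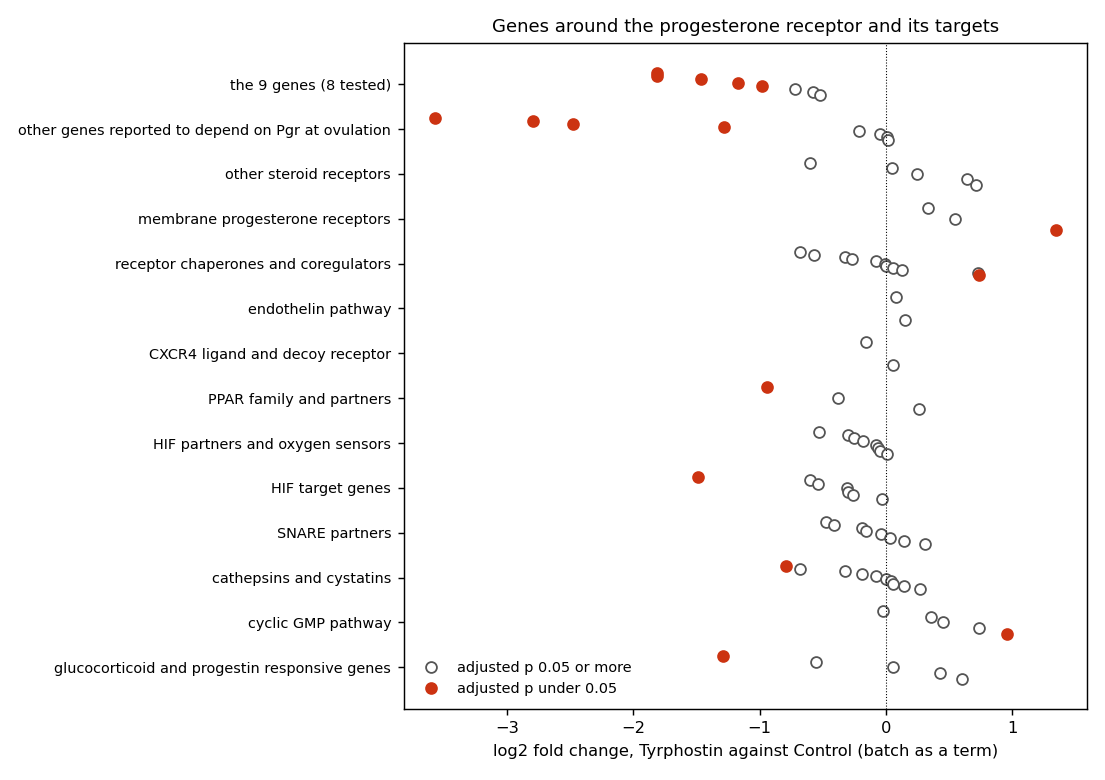
The log2 fold change (Tyrphostin against Control, batch as a term) of every tested gene in the members and in 13 lists around them, 1 point per gene and filled where the adjusted p is under 0.05. Filled points lie to the left in the first 2 rows, with Adcyap1 lowest at -3.57, and the filled points of Paqr8, Nrip1 and Nppc lie to the right.

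The genes whose pattern over the libraries was most like that of Pgr were sought among 6315 genes of average log2 CPM of at least 3. Likeness was Pearson's r of log2 CPM, centred within batches, over the 17 libraries, which share the treatment difference and the scaling. The 5 most alike were Robo2 (r = 0.95), Rragd (r = 0.93), Amot (r = 0.92), Fem1b (r = 0.92) and Bicd1 (r = 0.91). In the 11 Control libraries alone, r was 0.91, 0.94, 0.83, 0.81 and 0.96 in that order. All 5 were called lower, with log2 fold changes of -0.96 ± 0.23, -1.09 ± 0.21, -1.17 ± 0.33, -0.57 ± 0.16 and -1.03 ± 0.26. Of all genes tested, 6.25% were called lower. Values were not centred by treatment, so the choice itself favours genes that are lower in Tyrphostin follicles, as Pgr is. Their calls are thus no separate result.

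Robo2 is a receptor for SLIT guidance proteins, Rragd a GTPase of nutrient sensing, Amot a binding partner of YAP, Fem1b a substrate adaptor for protein degradation and Bicd1 a dynein adaptor. Robo2 had 2028 ± 808 CPM in Control and 1015 ± 499 CPM in Tyrphostin libraries. The call of Amot was lost without Tyrphostin 1 (adjusted p 0.0529), Tyrphostin 2 (0.0629), Tyrphostin 5 (0.0601) or Tyrphostin 6 (0.0703), and with total-count scaling (0.0584), no filter (0.123), no batch term (0.256) or the covariate (0.08). That of Fem1b was lost without Tyrphostin 1 (adjusted p 0.0554), Tyrphostin 2 (0.0704), Tyrphostin 5 (0.0602) or Tyrphostin 6 (0.0778), and with total-count scaling (0.121), no filter (0.111), the covariate (0.0613) or Control summed by set (0.0542). That of Robo2 was lost with no batch term (0.0519). Among the members, r with Pgr over the 17 libraries was highest for Snap25 (0.72) and Pparg (0.7), then Cxcr4 (0.63), Prkg2 (0.56), Hif1a and Zbtb16 (0.51 each), and lowest for Ctsl (0.37).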

How the data were processed

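Whole-number counts per gene symbol were deposited by the authors as 1 table of 25198 genes, 3576 of them with no count, and all 17 columns were matched to samples by names given in the labels. Libraries were made by Smart-Seq2, per the labels' protocols. STAR, HTSeq and build GRCm38 are named in the submitters' processing notes; versions, annotation and strand setting are not given in the sources used here. PCR copies cannot be removed from such counts.

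With edgeR 4.0.16 (R 4.3.3), counts passing filterByExpr were scaled by TMM and tested by quasi-likelihood F (robust), p-values were adjusted over all genes tested (Benjamini-Hochberg, threshold 0.05), and fits were made over 17 libraries with batch as a term, within each batch, as an interaction, and between batches among Control libraries. Standard errors are the log2 fold change over the square root of F, and intervals are at 95%. CPM uses TMM-scaled totals. Per-kb levels use exon lengths of GENCODE M21. The members and gene lists were chosen with earlier results of these data known. Named were the 9 members, in each list the called genes and up to 3 others of high CPM, and the 5 genes most like Pgr (log2 CPM with prior count 2).

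On simulated counts with the design of the pooled comparison, 59% of 2-fold and 97% of 4-fold changes were recovered among 9435 genes, 21% and 87% with that of batch 1 (9119 genes), and 11% and 71% with that of batch 2 (9627 genes). Of the calls, 4.88%, 6.9% and 2.38% were false in that order. The simulated means held no difference between batches, unlike the real libraries. As alternatives, DESeq2 1.42.0 and voom of limma 3.58.1 (with and without sample weights) replaced edgeR, RLE, upper quartiles or plain totals replaced TMM, and other filters, covariates and thresholds, Control libraries summed by the 5 sets in their names, a replicate block and the omission of each library were tried. Leaving out Control 7 and Tyrphostin 5 together was added after seeing the data.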

Additional observations from a re-analysis of the deposited data

Results flagged for a closer look

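Among 31 groups of 5 or 6 values searched, 2 held a library far from the others, where chance gives about 1.55. Control 6 had 1820545 counts in all, and the other 5 Control libraries of batch 1 had 3807300 to 4834875. For the 9 genes this means that 3 counts correspond to 1.64 CPM in Control 6, so its values for Edn2, Zbtb16, Prkg2 and Cxcr4 rest on 4 counts or fewer. In Control 7, 0.175% of counts were mitochondrial, and in the other 4 Control libraries of batch 2 1.74% to 1.94%. Its part in the values of the 9 genes was not tested.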

How the results depend on the processing

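Against 1018 called genes and 5 members called lower, no filter on low counts left 4 members (without Pgr), limma-voom 4 (without Prkg2), no batch term 2 (619 genes), a threshold of 0.01 3 (478 genes) and the replicate block 3. The other 9 of 14 alternatives kept 5 members. The total count as a covariate gave 678 genes. Leaving out each library gave 708 to 1314 genes and 4 to 5 members. Within batch 1, 634 genes became 394 to 687, lowest without Tyrphostin 2. Within batch 2, 61 became 303 in DESeq2, 222 with no filter, and 11 (without Tyrphostin 6) to 221 (without Control 7). The interaction gave 79 genes with no filter. The Control batch difference gave 1473 in DESeq2 and 637 to 1025 without single libraries, against 937. Total-count scaling moved the median of all genes to 0.15 and the share of calls that were higher from 41.1% to 64.4%, with the direction of every member kept. Without Control 7 and Tyrphostin 5, 1198 genes and 5 members passed.

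Signs turned only for values near 0. The Pgr interaction became -0.05 with total counts, -0.07 with no filter and -0.54 to 0.45 without single libraries. That of Snap25 became -0.09, 0 in DESeq2, -0.03 with no filter, and -0.76 to 0.45. Cxcr4 within batch 2 ranged from -1.21 to 0.12. Adamts1 became -0.02 in limma-voom, -0.05 with no batch term, 0 with the covariate, -0.4 under the block and -0.08 to 0.18 without single libraries. Epas1 became 0.11 with total counts, 0.07 with sample weights, 0.04 with the covariate, 0.24 under the block and -0.22 to 0.09. Ednra became -0.01 in limma-voom, -0.07 with sample weights and -0.17 to 0.21. Cxcl12 became -0.06 without Control 7 and Tyrphostin 5 and ranged from -0.06 to 0.19, and Ackr3 from -0.47 to 0.04. The causes were not tested.

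Whether numbers in the titles pair the libraries could not be decided. The correlation of deviations was 0.32, 0.08, 0.05, 0.1, 0.03 and 0.11 for numbers 1 to 6. Only 1 to 3 share a batch, so the other numbers join libraries of different batches and cannot show pairing within a batch. The nearest Control carried the own number for 2 of 6. These were number 1, within batch 1, and number 6, across batches. With the replicate block over 12 libraries, 624 genes (259 higher, 365 lower) and 3 members (Pgr, Pparg, Hif1a) passed, while Snap25 (adjusted p 0.17), Prkg2 (0.24) and, in the lists, Nrip1 (0.198), Nppc (0.241), Ctsc (0.367) and Fem1b (0.116) did not. Depth limits Edn2, Zbtb16, Prkg2 and Cxcr4, whose Control libraries hold a median of 19 counts or fewer.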
